A study of Mus musculus with 42 samples.

Results

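Interferon response genes were followed in newborn mouse lung, with Nrf2 present or deleted, in room air and in hyperoxia. The set was a list of 35 genes that interferon is known to switch on, sorted by role. Of these, 33 had a probe set annotated to 1 gene only, out of 18194 genes measured in that way. Isg15 and Ifi44 had no such probe set and were not analysed here. For each gene the probe set with the highest mean over the 42 arrays was used.

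The study used 42 newborn mice in 14 groups of 3, with the RNA of 1 whole-lung homogenate on each Affymetrix array. The genotypes were Nrf+/+ (wild type, WT) and Nrf-/- (knockout, KO), in which Nrf2, the master regulator of antioxidant genes, is deleted in all cells. Air groups of each genotype were taken at postnatal day P1 (the day of birth), P2, P3 and P4. Hyperoxia groups of each genotype breathed 100% oxygen (at least 95%) for 23 h a day and were taken on P2 (1 day of exposure), P3 (2 days) and P4 (3 days). All pups, those in air included, were kept with foster dams, and the dams in the chamber were replaced daily. The sources used here give neither strain nor sex. Hyperoxia in newborn mice, whose lungs are still immature, is used as a model of bronchopulmonary dysplasia, the chronic lung disease of preterm infants.

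Interferons are secreted proteins that cells release on sensing virus, foreign nucleic acid or tissue damage. Type I and type III interferons act through JAK kinases on a complex with STAT2 and IRF9 that binds the interferon-stimulated response element (ISRE), while the response to interferon-gamma runs through another element, the gamma-activated site (GAS). The genes switched on include the sensors and transcription factors of the pathway itself, enzymes that block viral RNA, and GTPases that attack the vacuoles of intracellular parasites.

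The sequence that the members are known to share was visible in their promoters. RefSeq promoter windows on the mouse assembly GRCm38.p6, from 250 bases before to 50 bases after a gene's start, were given for 26 of the 35 members. The ISRE core was searched for on both strands as GAAA, any 2 bases and GAAA again, and stood in a window of 12 of the 26 members (46.2%). Of all 27025 genes with a window, 1079 (3.99%) had it, or 3.44% of the 32851 windows. The GAS letters, TTC, any 3 bases and GAA, which read the same on both strands, stood in 7 of the 26 members (26.9%) against 9.55% of all genes. Bst2 and Igtp had both, and in Bst2 they overlapped. The members had been listed as interferon genes, so these shares describe the list and test nothing. The stretches below are from 8 measured members whose match lay before the start, because their levels are described further on. Capitals mark the ISRE matches, and each stretch reads 5′ to 3′ along the gene's own strand.
Bst2 (chr8:71537572-71537617, minus strand): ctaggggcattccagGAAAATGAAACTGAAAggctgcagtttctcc
Ifit1 (chr19:34640770-34640828, plus strand): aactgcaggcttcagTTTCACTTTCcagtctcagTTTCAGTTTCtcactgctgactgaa
Ifit3 (chr19:34583358-34583431, plus strand): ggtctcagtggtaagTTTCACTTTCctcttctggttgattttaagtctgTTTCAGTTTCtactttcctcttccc
Rsad2 (chr12:26456548-26456587, minus strand): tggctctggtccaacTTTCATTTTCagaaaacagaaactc
Gbp2 (chr3:142620589-142620628, plus strand): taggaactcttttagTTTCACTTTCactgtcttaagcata
Gbp3 (chr3:142559984-142560029, plus strand): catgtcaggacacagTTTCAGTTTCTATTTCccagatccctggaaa
Igtp (chr11:58199507-58199546, plus strand): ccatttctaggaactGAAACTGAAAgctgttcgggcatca
Stat2 (chr10:128270261-128270300, plus strand): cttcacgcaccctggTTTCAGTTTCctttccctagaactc

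The first match began 130 bases before the start in Bst2, 104 in Ifit1, 156 in Ifit3, 120 in Rsad2, 59 in Gbp2, 45 in Gbp3, 34 in Igtp and 222 in Stat2. Usp18, Dhx58, Zbp1, Oas2, Mx2, Iigp1, Parp9, Parp14 and Rtp4 had no window in the table. Absence of a match says only that these letters are not in the window.

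The labels were borne out by Nfe2l2, the gene of NRF2, whose log2 value was 10.32 to 11.56 in the 21 WT arrays and 4.26 to 5.46 in the 21 KO arrays. The lung markers Sftpc and Ager were at 14.52 to 14.77 and 13.96 to 14.68 in all arrays, far above the array medians over genes of 7.52 to 7.75. Other tissue was also present. Markers of liver, heart muscle, skeletal muscle or thymocytes stood more than 2 log2 units above their median in 17 arrays, among them all 6 WT air arrays of P1 and P2. The thymocyte score, the mean deviation of 7 marker genes relative to its median array, was 3.53, 1.03 and 2.61 in the 3 KO air arrays of P2, and at most 1.23 in the other arrays. Fewer cells of a type and less RNA per cell cannot be told apart in whole lung.

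All values below are log2 values, and changes are differences of group means from 1 limma fit to all 42 arrays, with standard error (SE). A gene was called where limma's Benjamini-Hochberg adjusted p over all 18194 genes was under 0.05. The members varied more between pups of one group than genes did in general. Their median within-group standard deviation (SD) was 0.17, against 0.13 over all genes.

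**Figure D1:**
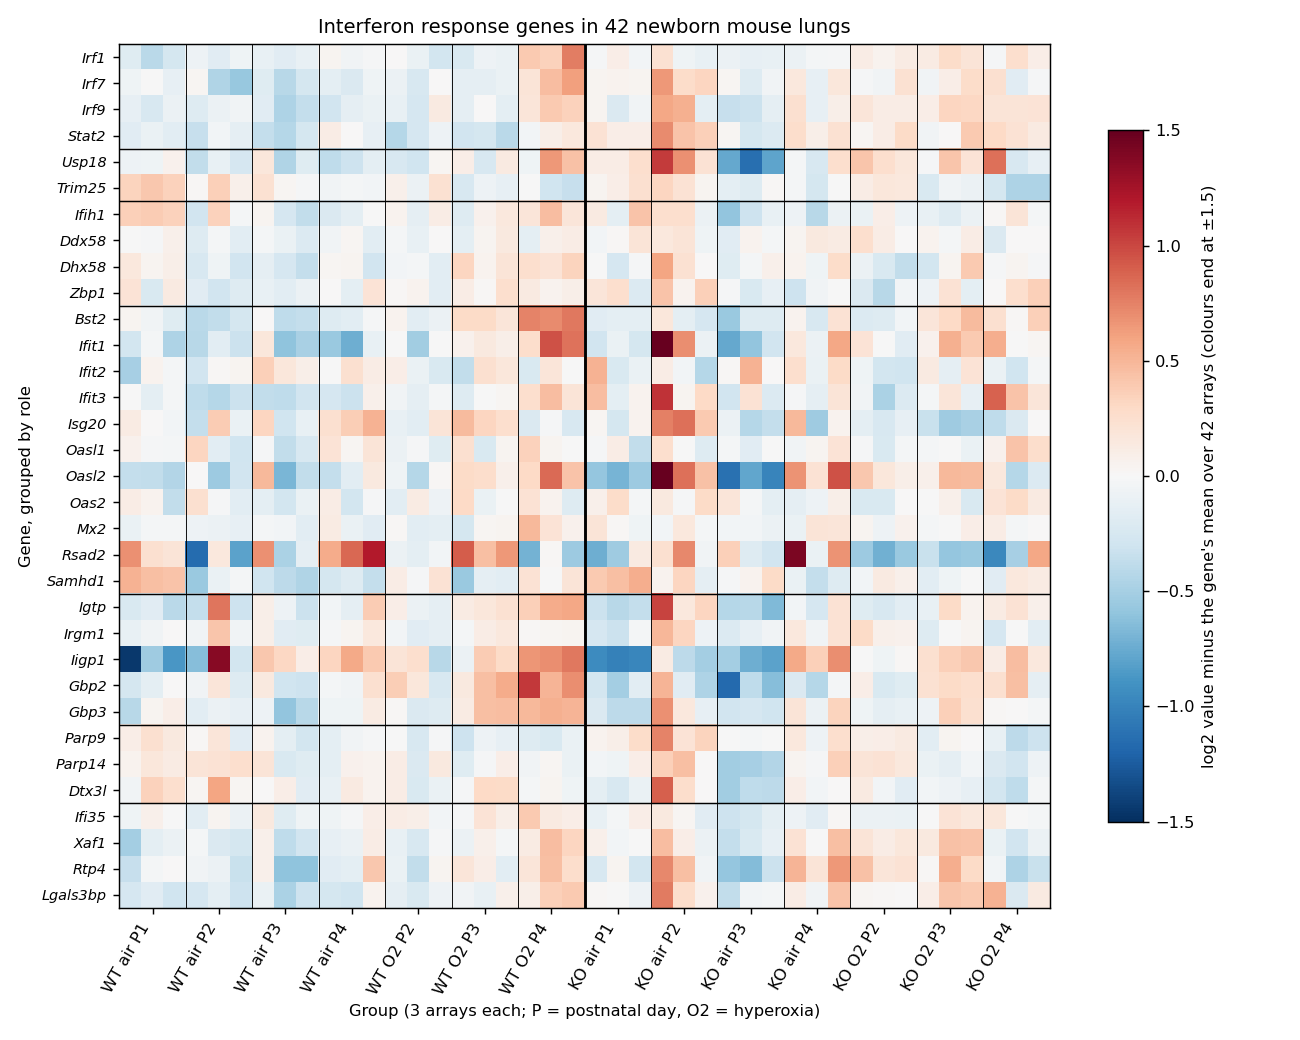
Each row is 1 of the 33 measured genes, ordered by role, and each column 1 of the 42 arrays, in groups of 3 with WT to the left of the thick line. Colour gives the log2 value minus the gene's mean over all arrays. The broadest red columns are the WT arrays of 3 days in oxygen and the first of the KO air arrays of P2, and the KO air arrays of P3 are mostly blue.

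In WT lungs, 3 days of hyperoxia raised 14 of the 33 members and lowered 2, Rsad2 and Isg20, against the air pups of the same age. Of all genes, 15.0% rose and 12.5% fell in this comparison. The median change of the members was 0.30, and that of all genes was -0.03. The rise spanned transcription factors (3 of 4), RNA sensors (2 of 4), antiviral effectors (5 of 11) and GTPases (2 of 5), and included none of the 3 ADP-ribosylation genes. Among the called members, Mx2 was the one whose arrays overlapped between air and oxygen. Leaving out the WT air P4 replicate 2 brought the called members from 16 to 10.

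Among the transcription factors, Irf1, an early factor that both interferons and inflammatory cytokines induce, was at 9.86, 9.77 and 9.80 in air and at 10.21, 10.17 and 10.59 in oxygen. The 3 oxygen arrays lay above the 3 air arrays (0.51 ± 0.09 SE, limma adjusted p = 4.41e-05). Irf7, which amplifies type I interferon production, was at 6.76, 6.69 and 6.84 in air and at 7.10, 7.37 and 7.52 in oxygen. It also rose without overlap (0.57 ± 0.13 SE, limma adjusted p = 0.000905). Irf9, the DNA-binding subunit of the complex that reads the ISRE, rose by 0.48 ± 0.13 SE (limma adjusted p = 0.00385), from 8.06, 8.21 and 8.25 to 8.53, 8.74 and 8.69. Its partner Stat2 was not called. Its air arrays at 7.01, 6.91 and 6.78 overlapped with the oxygen arrays at 6.86, 6.99 and 7.06 (0.07 ± 0.11 SE, limma adjusted p = 0.692).

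Usp18, the protease that removes ISG15 from proteins and also damps the type I receptor, was at 6.62, 6.68 and 6.85 in WT air P4 and at 6.93, 7.65 and 7.43 after 3 days of oxygen. The groups did not overlap, but the first oxygen array was only just above the highest air array (0.62 ± 0.21 SE, limma adjusted p = 0.0285). Trim25, a ubiquitin ligase that activates the sensor RIG-I, was not called at -0.17. Of the sensors of viral RNA, Ifih1 (MDA5) rose by 0.40 and its regulator Dhx58 (LGP2) by 0.34. The other, dimmer probe sets of Dhx58, with means of 4.57 and 4.48 over all arrays, gave 0.04 and 0.05, neither called. Ddx58 (RIG-I) at 0.08 and Zbp1, a sensor of Z-form nucleic acid, at 0.07 were not called.

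The antiviral effectors held both the largest rise and the largest fall. Ifit1, which binds viral RNA that lacks the host cap, was at 6.21, 6.04 and 6.66 in air and 7.03, 7.73 and 7.58 in oxygen. Every oxygen array was above every air array, a rise of 1.14 ± 0.27 SE or 2.21-fold (limma adjusted p = 0.00146). Bst2 (tetherin), which holds budding virus at the cell surface, had the smallest adjusted p of the members. It went from 7.95, 7.99 and 8.13 to 8.89, 8.86 and 8.94 (0.88 ± 0.12 SE, 1.84-fold, limma adjusted p = 6.45e-07), and the 3 oxygen arrays were the highest of all 42. Oasl2, of the oligoadenylate synthetase family, was at 5.90, 6.10 and 6.41 in air and 6.56, 7.11 and 6.69 in oxygen. The groups did not overlap (0.65 ± 0.24 SE, limma adjusted p = 0.0418). The calls of Oasl2 and Usp18 were each lost without any 1 of the WT air P4 replicates 1 and 2 and the WT oxygen P4 replicates 2 and 3, with changes of 0.49 to 1.11 for Oasl2 and 0.46 to 0.99 for Usp18 over all alternatives. Mx2, a dynamin-like GTPase, rose by 0.30 and Samhd1, which degrades the nucleotides that retroviruses need, by 0.41. The other 4 probe sets of Samhd1 changed by -0.10 to 0.09, none of them called.

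Rsad2 (viperin), a radical-SAM enzyme that makes a chain-terminating nucleotide, went the other way. It was at 11.55, 11.85 and 12.18 in WT air P4 and at 10.28, 11.01 and 10.44 after 3 days of oxygen. The groups did not overlap (-1.28 ± 0.35 SE, 2.43-fold lower, limma adjusted p = 0.00597), and its other 2 probe sets gave -1.24 and -1.26. Leaving out the 17 arrays high in other tissue left 1 oxygen array, at 11.01, against the air arrays at 11.55 and 11.85, a change of -0.69. Isg20, a 3′ to 5′ exonuclease, fell with it, from 9.83, 9.96 and 10.11 to 9.37, 9.57 and 9.35 (-0.54 ± 0.18 SE, limma adjusted p = 0.0253). In the same comparison the erythroid markers Slc4a1 (band 3) and Epb42 (protein 4.2) fell, 2 of 3 measured markers of red cells. Of the 4 lists of other tissue, limma called 2 of 10 heart muscle genes (Myh6 and Myl7, lower) and none of the 7 thymocyte, 9 liver and 8 skeletal muscle genes, of which 1 was lower at an unadjusted p under 0.05. The erythroid score was 0.42 to 0.66 in WT air P4 and -0.41 to -0.16 in WT oxygen P4. Its part in the falls of Rsad2 and Isg20, like that of the heart muscle genes alone, was not tested.

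Of the GTPases, Gbp2 was at 8.36, 8.34 and 8.63 in WT air and 9.45, 8.90 and 9.09 in oxygen. All oxygen arrays were above the air arrays (0.70 ± 0.21 SE, limma adjusted p = 0.00916), and its second probe set gave 0.64. The Gbp2 call was lost without the WT oxygen P4 replicate 1. Leaving out the 17 arrays high in other tissue left 1 oxygen array, too few to read the call. Gbp3 rose by 0.51 ± 0.15 SE (limma adjusted p = 0.00945), while Igtp (Irgm3) at 0.43, Iigp1 (Irga6) at 0.29 and Irgm1 at -0.03 were not called. Lgals3bp, a secreted glycoprotein, rose by 0.45. Xaf1, a promoter of apoptosis, at 0.34, Rtp4, a chaperone of receptors, at 0.28 and Ifi35 at 0.21 were not called. The partners Parp9 and Dtx3l, which ADP-ribosylate and ubiquitinate histones and viral proteins, and Parp14 changed by -0.10 to -0.04.

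Fewer members were called after shorter exposure in WT. After 1 day of oxygen 0 of 33 members were called, with 2 higher at an unadjusted limma p under 0.05, where 4.33% of all genes were called. After 2 days 3 rose, Bst2 by 0.50, Gbp3 by 0.71 and Dhx58 by 0.44, and none fell, where 2.89% of all genes rose and 2.51% fell. The changes of Bst2 on the 3 days were 0.29, 0.50 and 0.88. Averaged over the 3 days, 13 members were higher and 1 (Trim25) lower in oxygen than in air, where 14.4% and 9.53% of all genes were.

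**Figure D2:**
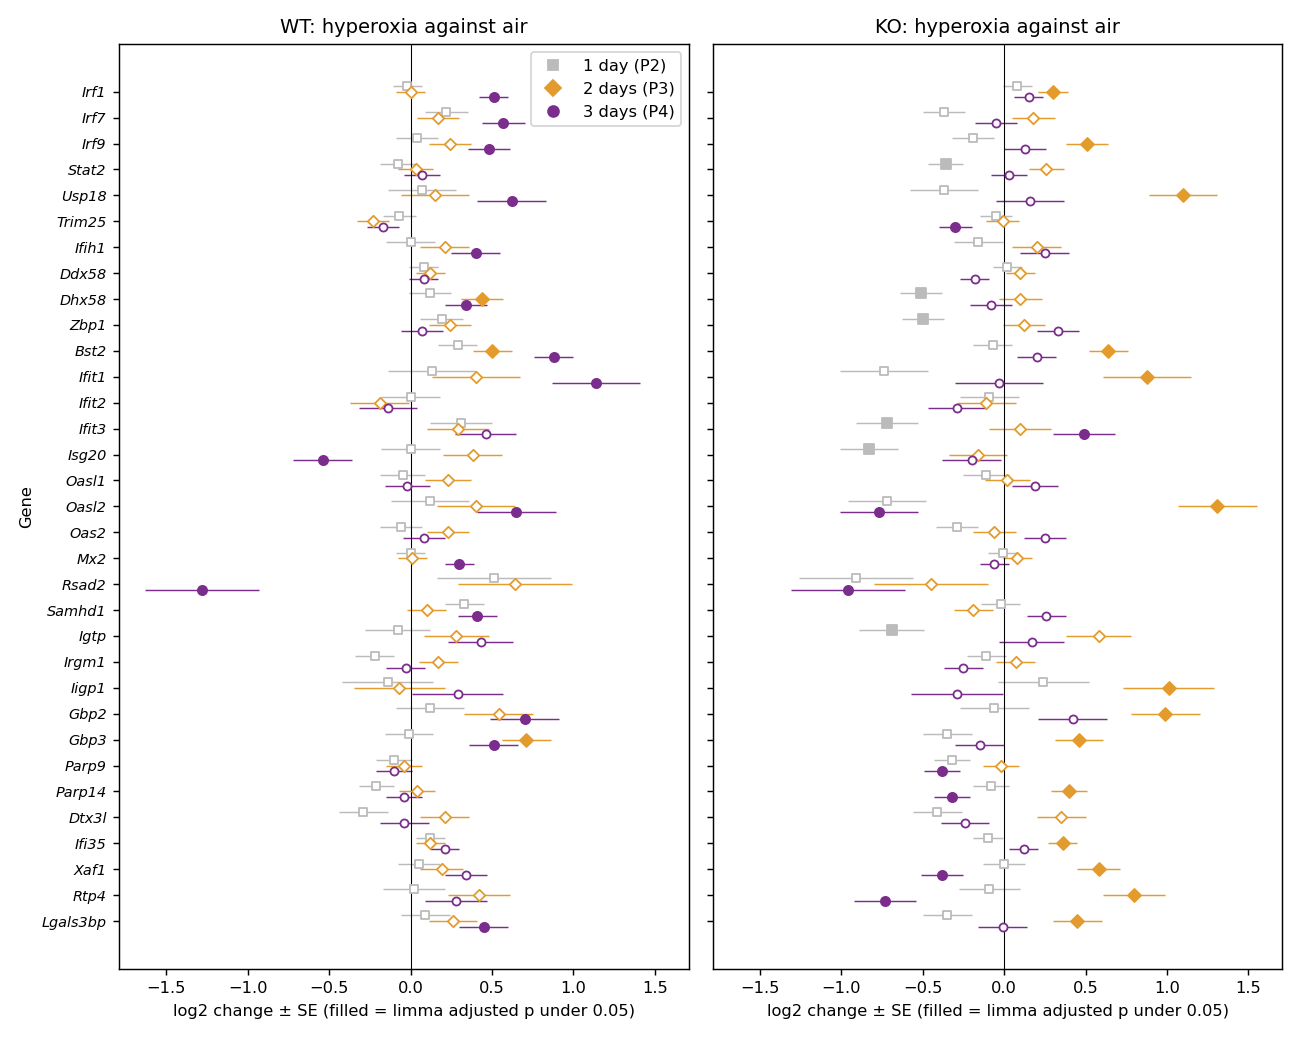
The horizontal axis is the log2 change of hyperoxia against air of the same age ± SE from limma for each of the 33 genes, in WT (left) and KO (right) lungs, with a symbol for each length of exposure and filled symbols for adjusted p under 0.05. In WT the filled symbols are mostly those of 3 days and lie to the right of 0 apart from Rsad2 and Isg20. In KO they lie to the left after 1 day, to the right after 2 days and, apart from Ifit3, to the left after 3 days.

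In KO lungs, 3 days of hyperoxia raised 1 member and lowered 7 of 33 against KO air pups of P4. Of all genes, 17.0% rose and 14.7% fell, and the median change was -0.05 for the members and 0.04 for all genes. Oasl2 was at 6.93, 6.48 and 7.21 in air and 6.42, 5.83 and 6.06 in oxygen, all oxygen arrays being lower (-0.77 ± 0.24 SE, limma adjusted p = 0.0132). Rtp4 fell from 9.36, 9.05 and 9.51 to 8.81, 8.39 and 8.52, again with no overlap (-0.73 ± 0.19 SE, limma adjusted p = 0.003), though its second, dimmer probe set gave -0.01. Parp9 fell by 0.38, Parp14 by 0.32, Xaf1 by 0.38 and Trim25 by 0.30. Rsad2 fell as in WT (-0.96 ± 0.35 SE, limma adjusted p = 0.0367), but its arrays overlapped, at 12.40, 10.89 and 11.66 in air and 10.02, 10.49 and 11.57 in oxygen.

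Ifit3, a partner of Ifit1, was the member that rose in KO, from 5.64, 5.52 and 5.85 to 6.55, 6.09 and 5.84, with 1 oxygen array inside the air range (0.49 ± 0.19 SE, limma adjusted p = 0.0432). The 4 transcription factors were not called. Irf1 changed by 0.15, Irf7 by -0.05, Irf9 by 0.13 and Stat2 by 0.03. The count of 8 called members fell to 1 without the KO oxygen P4 replicate 2, to 3 without the KO air P4 replicate 3 and to 4 without the KO air P4 replicate 1. Of the named members, Ifit3 was called in 7 of 14 alternatives, Xaf1 in 9 of 15, Rsad2 in 10 of 15 and Oasl2 in 12 of 14. Of the measured markers of liver (9), heart muscle (10), skeletal muscle (8) and thymocytes (7) limma called 0, with 1 thymocyte gene lower at an unadjusted p under 0.05.

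Shorter exposures gave other directions against air in KO lungs. Averaged over members, the deviation from each gene's mean was -0.01, 0.07 and 0.02 in KO oxygen at P2, P3 and P4. In KO air it was 0.27, -0.26 and 0.10 on the same days. The air groups thus differed more between days than the oxygen groups did. After 1 day 6 members were lower in oxygen and none higher, where 3.33% of all genes were lower and 5.73% higher: Stat2, Dhx58, Zbp1, Ifit3, Isg20 and Igtp, led by Isg20 (-0.83 ± 0.18 SE, limma adjusted p = 0.00354). Of the thymocyte markers 6 of 7 were lower too, with scores of 1.03 to 3.53 in air and -0.29 to -0.27 in oxygen, and their part was not tested. After 2 days 14 members were higher and none lower, where 8.87% of all genes were higher and 3.70% lower. Oasl2 was at 5.14, 5.48 and 5.27 in KO air P3 and at 6.34, 6.74 and 6.73 in oxygen, well apart (1.31 ± 0.24 SE, 2.48-fold, limma adjusted p = 0.000369). Usp18 went from 6.23, 5.86 and 6.20 to 6.98, 7.41 and 7.20 (1.10 ± 0.21 SE, limma adjusted p = 0.000647), and Gbp2 from 7.23, 8.01 and 7.75 to 8.62, 8.68 and 8.65 (0.99 ± 0.21 SE, limma adjusted p = 0.00133). Leaving out the KO oxygen P3 replicate 3 brought the 14 called members to 8. In P3 the skeletal muscle score of the KO air arrays was 0.47 to 6.04, against -0.11 to 0.41 in oxygen, and 5 of 8 skeletal muscle markers were lower in oxygen. Higher in oxygen were 4 of 9 macrophage and monocyte markers (Cd68, Adgre1, Mrc1 and Fcgr1), with scores of -0.56 to -0.39 in air and -0.08 to 0.15 in oxygen, and 3 of 4 B cell markers, with scores of -0.44 to -0.06 and 0.01 to 0.65. The part of each of these lists alone in the members' changes was not tested. Averaged over the 3 days in KO, 3 members were higher and 3 lower in oxygen, where 13.5% and 7.28% of all genes were.

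Whether hyperoxia acted differently in the genotypes was tested as the difference between the 2 effects. After 3 days 2 of 33 members were called, both with KO minus WT below 0, where 0.401% of all genes were lower and 0.159% higher. Oasl2 differed by -1.42 ± 0.34 SE (limma adjusted p = 0.0455), having risen by 0.65 in WT and fallen by 0.77 in KO. Bst2 differed by -0.68 ± 0.17 SE (limma adjusted p = 0.0492), with changes of 0.88 in WT and 0.20 in KO. In KO, Bst2 was at 8.20, 7.91 and 8.36 in air and 8.39, 8.16 and 8.51 in oxygen, so that the groups overlapped. The difference was below 0 for 27 of 33 members, with a median of -0.28 against 0.04 over all genes, and 11 were lower at an unadjusted limma p under 0.05. Both calls were lost when single arrays of P4 were left out, among them the WT air replicates 1 and 2, the WT oxygen replicates 2 and 3, the KO air replicates 1 and 3 and the KO oxygen replicate 2, with 0 members called without each of them. Without the WT air replicate 3 or the KO oxygen replicate 1 there was 1, and without the KO air replicate 2 there were 4. For Irf1 (-0.36), Irf7 (-0.61), Irf9 (-0.35) and Stat2 (-0.04) the difference was not called. For the effect of 1 day 2 members were lower in KO (Ifit3 and Zbp1), where 1.35% of all genes were, and for the mean effect 1 (Dhx58), where 0.511% were.

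The genotypes were also set side by side in oxygen. After 3 days 6 members were lower in KO than in WT and none higher, where 6.14% of all genes were lower and 3.67% higher: Irf1, Irf7, Bst2, Gbp3, Xaf1 and Rtp4, with Bst2 at -0.54 ± 0.12 SE (limma adjusted p = 0.00296). Lower in KO beside them were 3 of 4 B cell markers and 2 of 9 macrophage and monocyte markers. So was 1 of 7 T and NK cell markers (Gzma). The liver score was 1.45 to 4.81 in WT oxygen P4 and -0.27 to -0.04 in KO oxygen P4. Of 9 liver markers limma called 0, with 4 lower in KO at an unadjusted p under 0.05. The part of these cells and of liver was not tested. After 2 days Irf1 and Stat2 were higher in KO and Rsad2 and Isg20 lower, where 3.10% and 2.03% of all genes were. After 1 day Stat2 alone was called, higher in KO, where 2.06% of all genes were higher. Averaged over the 3 days, Stat2 was higher in KO (0.33, limma adjusted p = 0.000512) and Isg20 lower (-0.33, limma adjusted p = 0.0381), where 6.30% and 6.18% of all genes were. In that mean 4 of 9 macrophage and monocyte markers were lower in KO and 4 of 6 endothelial markers higher, and their part was not tested. Leaving out single arrays gave 1 to 4 called members for that mean, with 4 without the KO P4 replicate 3. There was 1 call when any 1 of 11 arrays was left out, the WT replicates 1 and 3 of P2, 1 and 2 of P3 and 2 of P4, and the KO replicates 1, 2 and 3 of P2, 2 of P3 and 1 and 2 of P4. By the probe set used, Stat2 was thus at a higher level in KO in oxygen as in air. Its second probe set gave 0.12 for the mean in oxygen and was not called (limma adjusted p = 0.225 over all probe sets). The response of Stat2 to oxygen was not called in either genotype after 3 days.

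**Figure D3:**
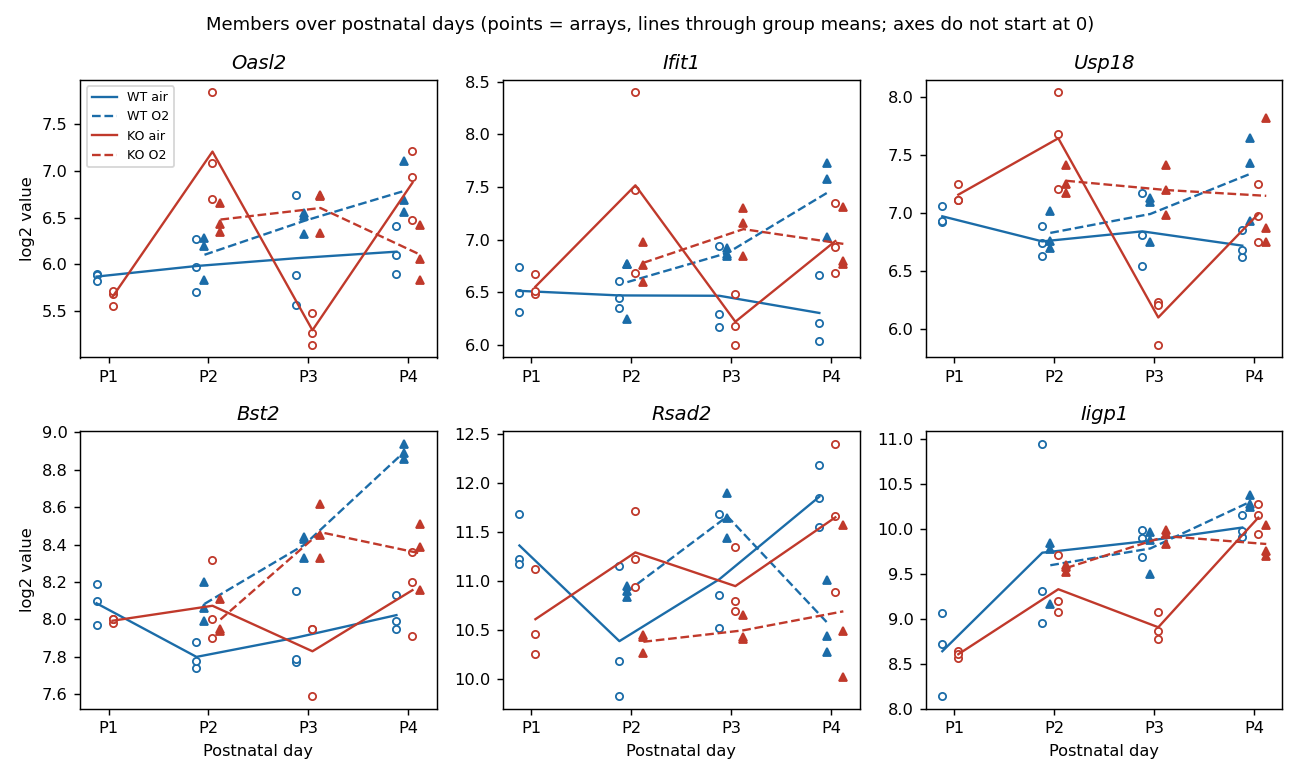
Log2 values (vertical axes, which do not start at 0) of 6 genes against postnatal day, with a point for each array and lines through the means of the 3 arrays of a group. In KO air Oasl2, Ifit1 and Usp18 peak at P2 and are lowest at P3. Bst2 climbs in WT oxygen to 8.86 to 8.94 at P4, and Rsad2 is lower in WT oxygen than in WT air at P4.

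In room air, 10 of the 33 members were higher in KO than in WT lungs over P1 to P4 and none was lower, where 14.5% of all genes were higher and 14.4% lower. The changes were small, with a median of 0.10 against 0.01 over all genes, and the arrays of the 2 genotypes overlapped for every member. Stat2 differed most clearly (0.34 ± 0.05 SE, 1.26-fold, limma adjusted p = 2.07e-05). Its KO air values had a mean of 7.04 ± 0.07 (SD, n = 3) at P1, and were 7.61, 7.33 and 7.26 at P2, 6.93, 6.63 and 6.70 at P3 and 7.16, 6.99 and 7.13 at P4. The WT air values were 6.73, 6.80 and 6.74 at P1, 6.55, 6.86 and 6.77 at P2, 6.54, 6.47 and 6.64 at P3 and 7.01, 6.91 and 6.78 at P4. KO was above WT without overlap at P1 and P2. The second Stat2 probe set also gave a rise, of 0.18.

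The other members higher in KO air were Irf7 (0.32), Irf9 (0.20), Ddx58 (0.12), Ifit1 (0.38), Ifit3 (0.37), Samhd1 (0.21), Parp9 (0.17), Xaf1 (0.20) and Lgals3bp (0.32). The Ifit1 call was lost in 10 of 31 alternatives, among them leaving out the WT replicates 3 of P1, 2 and 3 of P3 and 2 of P4 or the KO replicates 2 of P1, 1 of P2, 3 of P3 and 3 of P4. Averaged over its probe sets, Samhd1 was at 0.09 and no longer called (limma adjusted p = 0.0501). The second probe set of Xaf1 gave -0.10 and the others of Ddx58 -0.02 and 0.11, none of them called. Trim25, not called at -0.11, had other probe sets at 0.12 and 0.31, the latter called. Irf1, at 0.10, was not called (limma adjusted p = 0.083). In the same comparison all 7 measured thymocyte markers were higher and all 9 liver markers lower in KO, and 7 of 9 macrophage and monocyte markers were lower. With scores of liver, heart muscle, skeletal muscle and thymocyte markers as covariates, 4 of 33 members were called, Stat2 among them, while Ifit3 was at 0.14 and Ifit1 at 0.22, neither called.

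The ages were then compared one by one. At P1 1 member was higher in KO (Irf1, 0.29) and none lower, where 4.27% and 2.51% of all genes were. At P2 12 were higher and none lower, where 7.98% and 5.17% of all genes were, and the median of the members was 0.33. Of members not called at P2, other probe sets of Rsad2 gave 1.34 and 1.26, 1 of Trim25 0.70 and 1 of Samhd1 0.37. These were called over all probe sets. Among the called members, the other probe sets of Dhx58 gave 0.06 and 0.15 and that of Zbp1 0.56, none called. At P3 1 was higher (Samhd1) and 5 lower (Usp18, Oasl2, Iigp1, Gbp2 and Parp14), where 8.99% and 12.7% of all genes were. Beside them 6 of 8 skeletal muscle markers were higher in KO and 3 of 9 macrophage and monocyte markers lower, and their part was not tested. At P4 0 members were called by limma, with 4 higher at an unadjusted p under 0.05, where 0.726% of all genes were called.

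The peak of the KO air pups at P2 rested unevenly on the 3 lungs. Oasl2 was at 7.84, 7.08 and 6.70 in KO and 6.27, 5.71 and 5.97 in WT, all KO arrays being higher (1.23 ± 0.24 SE, 2.34-fold, limma adjusted p = 0.000911). Ifit1 was at 8.40, 7.47 and 6.68 in KO and 6.35, 6.61 and 6.45 in WT, with the third KO array barely above WT (1.05 ± 0.27 SE, limma adjusted p = 0.00835). Usp18 was at 8.04, 7.68 and 7.21 against 6.63, 6.89 and 6.74 (0.89 ± 0.21 SE, limma adjusted p = 0.00496). Irf7 (0.75), Stat2 (0.68) and Irf9 (0.43) were among the 12. The GTPases were not, and Igtp, at 9.84, 8.99 and 9.15 in KO, overlapped with WT at 8.47, 9.63 and 8.52.

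Of the 33 members, 17 had their highest value of all 42 arrays in the first KO air P2 array. Averaged over members, the deviation from each gene's mean was 0.54, 0.24 and 0.01 in these 3 arrays. The thymocyte scores of the same arrays were 3.53, 1.03 and 2.61. The first array was the highest in both, and the third was high in thymocyte markers and near 0 in the members. The part of thymocytes alone was not tested. The T and NK cell score of that group was 0.58 to 3.23. Without the first KO array the called members at P2 fell from 12 to 3 and without the third they rose to 17. With the scores of other tissue as covariates 0 were called, and the fit on the 6 arrays alone also called 0.

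**Figure D4:**
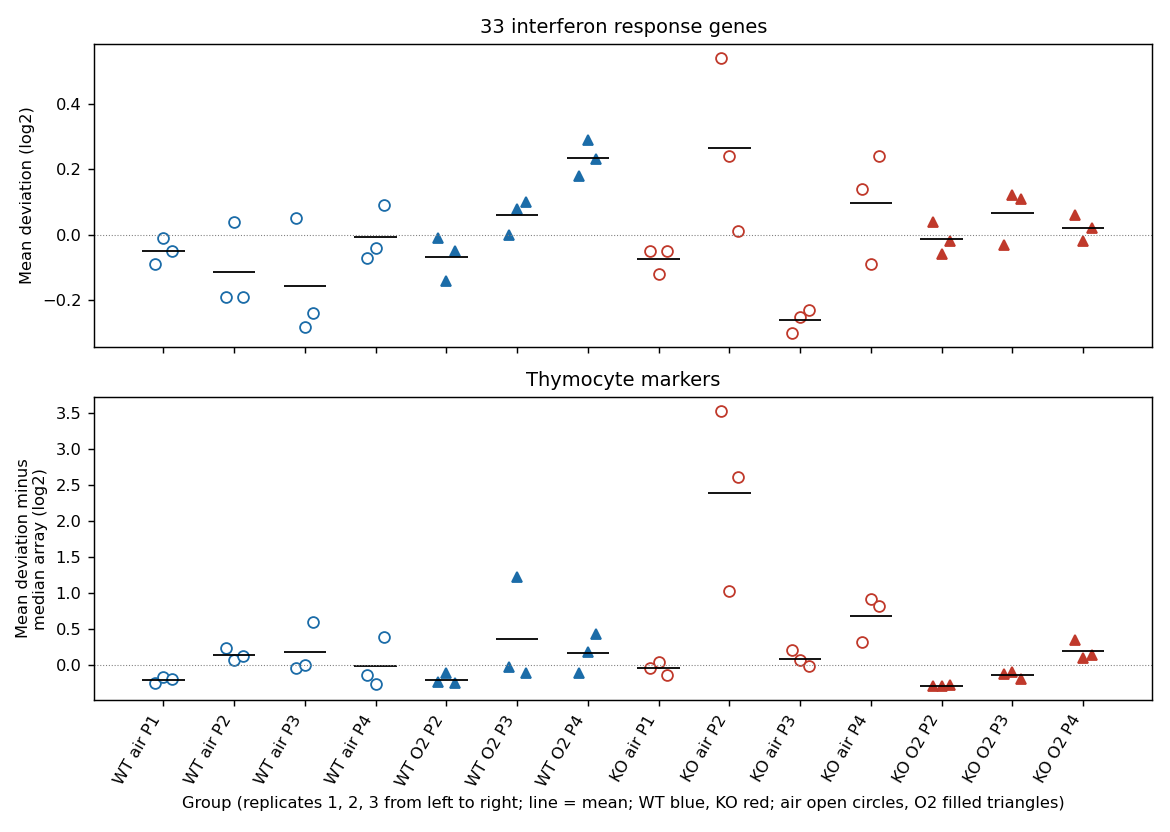
The upper panel gives for each array the mean over the 33 genes of the log2 deviation from the gene's mean over all arrays, and the lower panel the same over 7 thymocyte markers, less the median array. Symbols are single arrays, with replicates 1, 2 and 3 from left to right in each group, and lines are means of 3. The KO air group of P2 is the widest in the upper panel, from 0.01 to 0.54, and the KO air group of P3 the lowest, from -0.30 to -0.23.

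Within KO air, 10 members rose from P1 to P2 and 1 (Samhd1) fell, where 6.86% and 6.47% of all genes did, led by Oasl2 (1.55). Without the first KO array of P2 1 call was left, and without the P1 replicates 2 and 3 in turn 4 and 7. With the scores of other tissue as covariates, and with the 6 arrays alone, 0 were called. Leaving out the 17 arrays high in other tissue left 1 array at P2, so no count is given. Of the thymocyte markers 6 of 7 rose from P1 to P2, as did 6 of 7 T and NK cell markers. The covariates included the thymocyte score but not that of T and NK cells, and the part of each list alone was not tested. Compared with the same step in WT, the change was larger for 2 members (Oasl2 and Dhx58), where 1.73% of all genes were higher, and from P1 to P3 it was lower for 1 (Usp18), where 7.92% were lower.

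From P2 to P3 the members of KO air lungs moved down. Of the 33 members 21 were lower at P3 and none higher, where 10.9% of all genes were lower and 8.17% higher, and the median change was -0.44 against 0.00 over all genes. Oasl2 fell from 7.84, 7.08 and 6.70 to 5.14, 5.48 and 5.27 (-1.91 ± 0.24 SE, 3.76-fold lower, limma adjusted p = 1.84e-06). Usp18 fell by 1.55, Ifit1 by 1.29, Igtp by 1.00, Isg20 by 0.95 and Rtp4 by 0.89, and so did all 3 ADP-ribosylation genes, Parp14 by 0.76, Dtx3l by 0.81 and Parp9 by 0.44. Leaving out the first KO air P2 array left 10 calls. Leaving out the 17 arrays high in other tissue left 1 array at P2 and 1 at P3, so no count is given. With the scores of other tissue as covariates 3 members were called and with the 6 arrays alone 2, Oasl2 and Usp18 being called each time, while Ifit1, Igtp, Isg20, Rtp4, Irf7, Irf9 and Stat2 were not called in either. Over the same step in WT air limma called 0 members, with 1 lower at an unadjusted p under 0.05, where 3.07% of all genes were called. Thymocyte markers (6 of 7) and T and NK cell markers (6 of 7) fell with the members in KO and 4 of 8 skeletal muscle markers rose. The covariates included the thymocyte and skeletal muscle scores but not that of T and NK cells. The part of each list alone in the members' fall was not tested.

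Between P1 and P4 in air the members moved in both directions, and few of them. In WT 2 rose and 3 fell, where 11.2% and 11.3% of all genes did, and in KO 5 rose and 1 fell, where 8.09% and 13.5% did. Iigp1, a GTPase that interferon-gamma induces strongly, rose in both. It was at 8.14, 9.06 and 8.72 at P1 and 9.91, 10.16 and 9.98 at P4 in WT (1.37 ± 0.28 SE, 2.59-fold, limma adjusted p = 0.000373). In KO it was at 8.64, 8.57 and 8.61 at P1 and 10.16, 9.94 and 10.28 at P4 (1.52 ± 0.28 SE, 2.87-fold, limma adjusted p = 0.000137). In neither genotype did the ages overlap, and the second probe set of Iigp1 gave the same 1.37 in WT.

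Samhd1 fell in both genotypes. It went from 10.36, 10.30 and 10.27 to 9.58, 9.65 and 9.49 in WT (-0.73 ± 0.12 SE, limma adjusted p = 3.19e-05) and from 10.24, 10.29 and 10.39 to 9.74, 9.48 and 9.65 in KO (-0.68 ± 0.12 SE, limma adjusted p = 0.000104). In WT it was already lower at P2 (-0.69). From P1 to P4 the other probe sets of Samhd1 gave -0.41, -0.31, -0.31 and 0.01 in WT, with only -0.41 called. In KO they gave -0.58, -0.66, -0.63 and -0.06, all called but the last. In WT, Ifih1 fell by 0.48 and Trim25 by 0.40, while Irf1 rose by 0.27. In KO, Oasl2 rose by 1.22 ± 0.24 SE (limma adjusted p = 0.000343), from 5.68, 5.56 and 5.72 to 6.93, 6.48 and 7.21. Rsad2 rose by 1.04, Rtp4 by 0.61 and Gbp3 by 0.48 in KO, though Rsad2 overlapped between the ages. These calls were kept in 11 of 15 alternatives for Rsad2, 9 of 15 for Rtp4 (0.20 as the average of its probe sets) and 9 of 14 for Gbp3, and that of Irf1 in WT in 9 of 14. Leaving out the KO air P4 replicate 1 or replicate 3 brought the called members in KO from 6 to 3, and leaving out the WT air P4 replicate 1 brought those in WT from 5 to 3.

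The rest of the pathway was read from 5 lists of non-members. In the comparisons with 3 days of oxygen 15.0% of all genes rose and 12.5% fell in WT, and 17.0% rose and 14.7% fell in KO. After 3 days of oxygen 8 of 10 measured receptor and kinase genes rose in WT and 6 of 10 in KO, with none falling. Stat3, which carries the signals of the interleukin-6 family, rose by 1.20 and 1.16, and the kinase gene Jak2 by 0.66 and 0.67. Of the sensing genes 5 of 12 rose in WT and 6 of 12 in KO, led by Myd88, the adaptor of Toll-like receptors (0.91 and 1.10). Of the inhibitors 5 of 9 rose and 1 fell in WT, and 3 rose in KO. Socs3, a feedback inhibitor of cytokine receptors, was among the largest changes in the pathway, at 2.92 ± 0.18 SE in WT (limma adjusted p = 1.22e-13) and 2.81 ± 0.18 SE in KO (limma adjusted p = 4.42e-13). Stat3, Jak2, Myd88 and Socs3 were thus called in both genotypes, while Irf7, Irf9, Bst2 and Ifit1 were called in WT and not in KO, and of these Bst2 was called in the test of the difference.

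Of 41 other measured induced genes 9 rose and 1 fell in WT, and 7 rose and 1 fell in KO after 3 days. The shares that rose are near those of all genes and are no result about the list. Cxcl10, a chemokine for T cells, was at 5.63, 5.57 and 5.73 in WT air and 8.86, 9.14 and 10.11 in oxygen (3.73 ± 0.33 SE, 13.2-fold, limma adjusted p = 2.43e-10). In KO it was at 5.40, 5.61 and 5.79 in air and 7.70, 8.26 and 7.68 in oxygen (2.28 ± 0.33 SE, 4.86-fold, limma adjusted p = 2.31e-06). No oxygen array overlapped with air in either genotype. Ifitm1, which blocks viral entry, rose by 2.01 in WT and 2.45 in KO, and Cmpk2, the neighbour of Rsad2 in the genome and a nucleotide kinase, was lower in oxygen in both, by 1.09 in KO.

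The interferon genes themselves were also measured. Ifna1 was at 6.26 to 7.14, Ifnb1 at 5.04 to 5.95 and Ifng at 3.82 to 4.28 over all arrays, where the tenth percentile of an array was 4.49 to 4.69. Of the 7 measured, limma called 0 in WT after 3 days of oxygen, with 1 lower at an unadjusted p under 0.05, and in KO Ifna4, Ifna1, Ifnab and Ifng were higher, with Ifna4 at 0.35, Ifna1 at 0.29 and Ifng at 0.25. From P1 to P4 in KO air Ifna1 (-0.35), Ifna4 (-0.32) and Ifnb1 (-0.38) were lower at P4, and Ifna1 was higher in KO than in WT air (0.20). The Ifna genes are close to one another in sequence, so their probe sets may share signal. In KO air at P2, 17 of 41 other induced genes were higher than in WT, where 7.98% of all genes were, among them the immunoproteasome gene Psmb9 (1.37), Cxcl10 (1.21) and Epsti1 (1.20), and Socs1, the main brake on interferon-gamma signalling, was higher by 1.00. From P2 to P3 in KO air 20 of the 41 fell, where 10.9% of all genes did. In both comparisons 6 of 7 thymocyte and 6 of 7 T and NK cell markers moved in the same direction, and their part was not tested.

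Markers of blood cells moved in oxygen as well. After 3 days 4 of 9 macrophage and monocyte markers rose in WT (Cd68, Marco, Adgre1 and Fcgr1) with 1 lower, and 5 of 9 rose in KO. The score of that list was 0.14 to 0.15 in WT air P4 and 0.39 to 0.59 in WT oxygen, and -0.27 to -0.17 in KO air P4 and 0.17 to 0.47 in KO oxygen. Neutrophil markers rose in both genotypes, 4 of 8 in each, with scores of -0.79 to -0.49 in WT air and -0.36 to 0.77 in oxygen, and of -0.72 to -0.50 and 0.03 to 0.81 in KO. The T and NK cell score was 0.02 to 0.40 in WT air P4 and 0.57 to 0.75 in WT oxygen, with 1 of 7 markers called (Gzma, higher), and 0.19 to 0.35 in KO air P4 and 0.05 to 0.26 in KO oxygen. The B cell genes Cd79a and Cd79b rose in WT, and limma called 0 of 4 B cell markers in KO, with 0 at an unadjusted p under 0.05. Of the markers of plasmacytoid dendritic cells, which make much type I interferon, limma called 0 of 5 in either genotype, with 1 higher in each at an unadjusted p under 0.05, and Siglech was at 5.19 to 5.81 in all arrays. The part of these cells in the members' changes was not tested.

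The calls were also counted by ISRE match. After 3 days of oxygen in WT, 5 of 11 measured members with a match rose and 1 fell, and of 13 with a window but no match 6 rose and 1 fell, where 15.0% and 12.5% of all genes did. From P2 to P3 in KO air 8 of 11 with a match and 8 of 13 without fell, where 10.9% of all genes did. Irf7, Irf9, Oasl2 and Lgals3bp, all higher in WT oxygen, had no match within the window.

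Across the 14 groups, 14 of the 33 members had their highest mean in KO air P2 and 8 in WT oxygen P4, and 10 had their lowest in KO air P3 and 8 in WT air P3. The mean deviation of the members was 0.23 ± 0.06 (SD, n = 3) in WT oxygen P4 and -0.01 ± 0.08 in WT air P4. It was 0.02 ± 0.04 in KO oxygen P4 and 0.10 ± 0.17 in KO air P4. At P2 and P3 the KO oxygen groups were at -0.01 ± 0.05 and 0.07 ± 0.08. The KO air groups ran from -0.08 ± 0.04 at P1 to 0.27 ± 0.27 at P2, -0.26 ± 0.03 at P3 and 0.10 ± 0.17 at P4, and the WT air groups stayed between -0.16 and -0.01.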

How the data were processed

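RNA of 42 newborn mouse lungs, 1 mouse per array, was measured on Affymetrix arrays. The deposited values are log2 signals, 1 per probe set (45101) and array. GCOS and RMA made them, per the submitters' processing notes, with versions not given in the sources used here. They were used without further normalisation. The number of arrays limits the precision.

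Groups came from the sample titles. A gene was represented by its single-symbol probe set of highest mean (18194 genes), and 14 of the 33 measured members had several. Group means were fitted with limma 3.58.1 in R 4.3.3 (28 residual degrees of freedom), contrasts were two-sided, and p was adjusted over all genes within each of 32 contrasts. The procedure was tested on simulated data. Array values are given for up to 6 called members of largest change per comparison and always for Irf1, Irf7, Irf9 and Stat2, and per pathway list up to 3 called genes are named. Further members were named after their values were seen. The members, lists and tests were chosen with earlier results of these data known, and the comparisons within KO air from P2 to P3 and at single days were added after seeing the data. Alternatives were cyclic loess, another variance prior, array weights, a level filter, probe-set means, a smaller fit, a replicate block, and handling of other tissue and of single arrays.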

Additional observations from a re-analysis of the deposited data

Results flagged for a closer look

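The tests of a difference between genotypes called 8 results, listed here with limma's adjusted p over all 18194 genes. The effect of 3 days of hyperoxia was lower in KO than in WT for Bst2 (-0.68, limma adjusted p = 0.0492) and Oasl2 (-1.42, limma adjusted p = 0.0455). Bst2 rose by 0.88 in WT and was not called in KO, and Oasl2 rose by 0.65 in WT and fell by 0.77 in KO. The effect of 1 day was lower in KO than in WT for Zbp1 (-0.69, limma adjusted p = 0.0349) and Ifit3 (-1.03, limma adjusted p = 0.0299), where 1.35% of all genes were lower. In WT Zbp1 changed by 0.19 and Ifit3 by 0.31, neither called, and in KO both were called lower in oxygen. Averaged over 1 to 3 days the effect on Dhx58 was lower in KO (-0.46, limma adjusted p = 0.0193), where 0.511% of all genes were lower. It was 0.30 in WT and -0.16 in KO. The other, dimmer probe sets of Dhx58 gave 0.11 and 0.03 in WT and 0.10 and 0.08 in KO, none of them called. In air, the change from P1 to P2 was larger in KO for Dhx58 (0.66, limma adjusted p = 0.047) and Oasl2 (1.44, limma adjusted p = 0.0219), where 1.73% of all genes were higher. The change from P1 to P3 was lower in KO for Usp18 (-0.94, limma adjusted p = 0.0367), where 7.92% of all genes were lower. The results of 1 day, of the 3-day mean and of P1 to P2 use the KO air arrays of P2, whose thymocyte scores were 1.03 to 3.53. The result of P1 to P3 uses the KO air arrays of P3, whose skeletal muscle scores were 0.47 to 6.04. In that test 6 of 8 skeletal muscle and 2 of 10 heart muscle markers were higher, and their part was not tested.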

How the results depend on the processing

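No called result changed direction under an alternative, while some values that were not called changed sign, such as Irf1 for KO against WT in air (0.10, lowest -0.04) and Irf7 after 3 days of hyperoxia in KO (-0.05, highest 0.05). The number of called members moved by more than 1.5 times as follows. For KO minus WT in the effect of 3 days of hyperoxia (2 called) it was 5 with cyclic loess and 8 with array weights. It was 1 with an intensity trend and robust variances, 1 with probe-set means and 1 with other-tissue scores as covariates. With only the arrays of the contrast it was 0. For KO against WT in hyperoxia (2) it was 9 with array weights and 6 with only the arrays of the contrast. Array weights gave 10 for P4 against P1 in KO (6). For KO against WT in air at P2 (12) it was 6 with array weights, 0 with only the arrays of the contrast and 0 with the covariates. For P2 against P1 in KO air (11) it was 4 with array weights, 0 with only its arrays and 0 with the covariates. For P3 against P2 in KO air (21) it was 12, 2 and 3 in the same order. Only its own arrays gave 3 for 3 days of hyperoxia in KO (8), and the covariates gave 4 for KO against WT in air (10) and 8 for 2 days of hyperoxia in KO (14). Leaving out the 17 arrays high in other tissue emptied WT air P1 and P2, so 4 comparisons had no value. It left 1 array in each of WT air P3, WT oxygen P4, KO air P2 and KO air P3. No counts are given for comparisons that use these groups.

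Leaving out 1 array at a time gave 8 to 12 called members for KO against WT in air, 1 to 4 for KO against WT in hyperoxia, 10 to 14 and 1 to 8 for 3 days of hyperoxia in WT and KO, and 0 to 4 for their difference. It gave 3 to 5 and 3 to 7 for P4 against P1 in WT and KO, 3 to 17 for KO against WT in air at P2, 1 to 14 for P2 against P1 in KO, 8 to 14 for 2 days of hyperoxia in KO, and 10 to 22 for P3 against P2 in KO. For the mean effect of hyperoxia it gave 10 to 16 in WT and 6 to 8 in KO.

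The replicate numbers did not pair the pups. Deviations of same-numbered arrays had a median correlation of 0.0124, against 0.0146 for other numbers, and 14 of 42 arrays correlated best with their own number. With the replicate number as a block, 15 members were called for 3 days of hyperoxia in WT and 10 for KO against WT in air, and no count moved by over 1.5 times. With 3 pups a group, small changes of single genes could not be told from the spread between pups. The other-tissue share of a lung was not measured apart from its markers.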
